A study of Mus musculus with 6 samples.

Results

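Cytochromes P450 of family 4 are heme enzymes of the endoplasmic reticulum that add oxygen at or near the end of a fatty acid chain, and 10 mouse genes of this family were followed in livers lacking the splicing factor SRSF3 in hepatocytes. The genes were Cyp4a10, Cyp4a12a, Cyp4a12b, Cyp4a14, Cyp4b1, Cyp4f13, Cyp4f14, Cyp4f15, Cyp4f16 and Cyp4v3, taken by symbol and not by a measured value. They held 116 of the 208397 probe sets that the array annotation assigns to exactly 1 gene, and they are 10 of 16277 genes on the array. Averaged over the arrays, all 10 lay above the detection floor, which is set by receptor genes of smell and taste, as did 112 of the 116 probe sets. The other 4 probe sets were 1 of Cyp4a14, 1 of Cyp4b1 and 2 of Cyp4f16.

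The tested mice were SRSF3HKO, carrying a knockout of Srsf3 limited to hepatocytes, and the controls were WT littermates of the same age. Both groups were 1 month old and untreated. Total RNA of whole liver was measured on 6 Affymetrix exon arrays, 3 SRSF3HKO and 3 WT. The labels name neither the Cre driver nor the deleted part of the gene, and the other cells of the liver keep Srsf3.

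Omega-hydroxylation opens a side route of fatty acid breakdown, in which the end-hydroxylated acid is oxidised to a dicarboxylic acid and then shortened in peroxisomes. The same enzymes hydroxylate arachidonic acid, leukotrienes and the side chains of fat-soluble vitamins. In rodent liver the Cyp4a genes are known as targets of the fatty acid receptor PPARA, and Cyp4a12a and Cyp4a12b are known to be expressed mostly in males.

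Median intensity over all probe sets ran from 81.5 to 89.6 on the SRSF3HKO arrays and from 75.3 to 85.9 on the WT arrays. Precision is limited by the small number of arrays. The labels speak of 3 SRSF3HKO mice and do not say whether each WT array is a separate mouse, so p-values measure the spread between these samples. At gene level Srsf3 itself had log2 values of 10.30, 9.10 and 9.78 in SRSF3HKO and 9.79, 9.24 and 9.35 in WT, and probe sets outside a deleted part check nothing about the labels. The Y-linked gene Eif2s3y was at 8.99 in SRSF3HKO replicate 3 and below the detection floor in SRSF3HKO replicates 1 and 2, and it was at 8.62 and 8.36 in WT replicates 1 and 2 and below the floor in WT replicate 3. The 3 WT arrays therefore do not all come from 1 mouse, while the labels leave it unsaid for WT replicates 1 and 2. Hepatocyte marker genes had a summed intensity of 70584 to 79912 in SRSF3HKO and 81106 to 81819 in WT, with none of 8 called and albumin (Alb) at a log2 change of -0.02. Macrophage markers summed to 3966 to 23642 in SRSF3HKO and 3299 to 3808 in WT, with 1 of 10 called, the scavenger receptor gene Marco (log2 change 2.78). SRSF3HKO replicate 1 stood apart, with the highest level of all 6 arrays for each of the 10 macrophage markers. Cholangiocyte markers summed to 952 to 3189 in SRSF3HKO and 600 to 944 in WT, stellate cell markers to 3858 to 6824 in SRSF3HKO and 3547 to 4532 in WT, and neutrophil markers to 158 to 488 in SRSF3HKO and 112 to 155 in WT, with none called by limma. Endothelial markers summed to 2373 to 4434 in SRSF3HKO and 3602 to 4873 in WT, with 1 of 10 lower (Kdr, log2 change -0.87). Over all genes tested 5.03% were called lower and 6.85% higher. Kidney markers summed to 226 to 258 in SRSF3HKO and 225 to 254 in WT. The part of these differences in the results below was not tested.

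At gene level 4 of the 10 family members fell and 1 rose in SRSF3HKO liver. Cyp4f14, Cyp4a12a, Cyp4a12b and Cyp4v3 were lower, Cyp4f16 was higher, and the other 5 did not pass the test. Cyp4a12a passed the filter only through the WT arrays, since its SRSF3HKO mean lay under the detection floor. The share of all 11711 genes tested was 5.03% called lower and 6.85% called higher (limma, adjusted p under 0.05), 11.9% in all. The median log2 change over the 10 members was -0.79, against 0.08 over all genes tested. The 3 SRSF3HKO arrays did not overlap with the 3 WT arrays for 6 of the 10 members, against 35.6% of all genes tested (14% lower and 21.6% higher). Without SRSF3HKO replicate 1 the 4 falls stayed called, at log2 changes of -2.84 for Cyp4f14, -4.24 for Cyp4a12a, -3.83 for Cyp4a12b and -0.96 for Cyp4v3 (limma adjusted p = 0.00269, 0.0413, 0.0422 and 0.0253). In that run the rise of Cyp4f16 was no longer called (limma adjusted p = 0.0567). Without WT replicate 1, and likewise without WT replicate 2, only 1 member stayed called lower, Cyp4f14. A log2 change throughout is the SRSF3HKO mean minus the WT mean of log2(intensity + 16), a scale that understates changes of dim genes, and a gene level is the median over the gene's probe sets. Intensity is linear, and levels of different genes are not compared with each other. In whole liver, fewer cells of a type and less RNA per cell cannot be told apart.

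**Figure D1:**
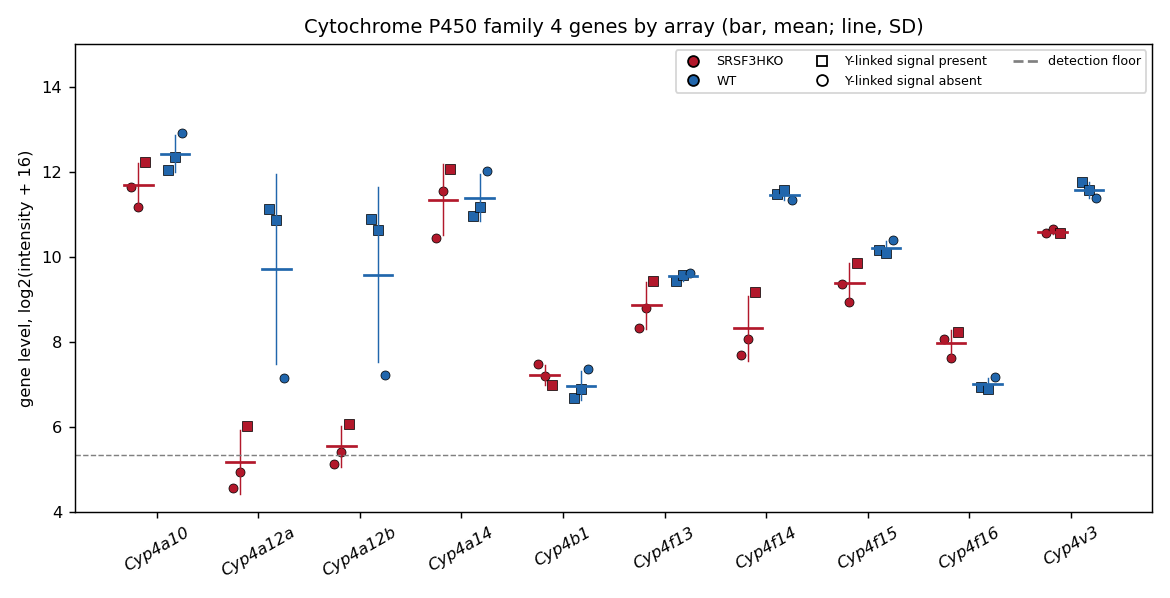
Gene level, as log2(intensity + 16), of the 10 family 4 genes on each array, SRSF3HKO left of WT within each gene; bars are means, lines are SD (n = 3 each), squares are arrays with Y-linked signal, circles arrays without it, and the dashed line is the detection floor of 5.35. Cyp4f14 and Cyp4v3 stand lower and Cyp4f16 higher on all 3 SRSF3HKO arrays, and 1 WT array of Cyp4a12a and Cyp4a12b lies far below the other WT arrays.

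Cyp4f14, which hydroxylates leukotrienes and is known in mouse as a vitamin E hydroxylase, had the clearest fall of the family. Its intensity was 191, 252 and 562 on the SRSF3HKO arrays, against 2813, 3023 and 2574 on the WT arrays. The groups were far apart, and the highest SRSF3HKO array was still 4.48-fold below the lowest WT array on the log2(intensity + 16) scale. The log2 change was -3.15 ± 0.35 (SE, n = 3 each), an 8.85-fold lower level (limma adjusted p = 0.00241). All 15 probe sets of Cyp4f14 fell, against 4.33% of all probe sets called lower and 9.05% called in either direction. Their log2 changes ran from -3.95 to -1.91, with a median of -3.10. At the low end, probe set 4323392 averaged 91.2 ± 59.8 in SRSF3HKO and 1479 ± 76.2 in WT, and at the other end probe set 4521935 averaged 477 ± 211 in SRSF3HKO and 1744 ± 151 in WT (SD, n = 3 each). No probe set of Cyp4f14 was called as changing apart from the rest of the gene. The lowest diffSplice adjusted p was 0.315, for probe set 4521935, which fell less than the others (log2 usage change 1.28).

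SRSF3HKO replicate 3 had the highest Cyp4f14 level of its group, and it was the highest of the 3 SRSF3HKO arrays for 8 of the 10 members. Without that array the log2 change of Cyp4f14 was -3.58 (limma adjusted p = 0.000473). Within the arrays with Y-linked signal, 1 SRSF3HKO and 2 WT, it was -2.34, and within the 2 SRSF3HKO and 1 WT arrays without it, it was -3.46.

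Cyp4f14 lies on chromosome 17 in a run of family members that holds, in order, Cyp4f16, Cyp4f15, Cyp4f14 and Cyp4f13, with Cyp4f13 and Cyp4f14 on the minus strand and Cyp4f15 and Cyp4f16 on the plus strand. Because these neighbours did not change alike, the 250 bases before a listed start of each are shown (RefSeq, GRCm38.p6, 5′ to 3′). The gene spans begin at 32536545 for Cyp4f16 and 32685631 for Cyp4f15. On the minus strand their upstream edges are at 32917376 for Cyp4f14 and 32947415 for Cyp4f13. Each window therefore reaches into the span of its gene, and distances below count from the listed start. Of the 10 members, 6 matched an entry of the promoter table, and for Cyp4f14, which has several listed starts, the first is shown. Capitals mark matches on either strand to CCAAT (a box bound by the factor NF-Y, read as ATTGG from the other strand) or to TTCNNNGAA (the core of sites bound by STAT factors).
Cyp4f14, chr17:32917357-32917606, minus strand: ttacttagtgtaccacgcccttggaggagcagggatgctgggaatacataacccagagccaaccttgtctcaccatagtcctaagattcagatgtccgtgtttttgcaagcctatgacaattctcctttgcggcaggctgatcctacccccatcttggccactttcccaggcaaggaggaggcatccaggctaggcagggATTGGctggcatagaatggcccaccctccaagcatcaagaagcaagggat
Cyp4f16, chr17:32536307-32536556, plus strand: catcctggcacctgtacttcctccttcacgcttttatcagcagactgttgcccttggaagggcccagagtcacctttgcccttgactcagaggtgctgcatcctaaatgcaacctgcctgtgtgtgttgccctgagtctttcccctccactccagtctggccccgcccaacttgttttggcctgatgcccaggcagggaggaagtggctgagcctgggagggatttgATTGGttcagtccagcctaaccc
Cyp4f15, chr17:32685409-32685658, plus strand: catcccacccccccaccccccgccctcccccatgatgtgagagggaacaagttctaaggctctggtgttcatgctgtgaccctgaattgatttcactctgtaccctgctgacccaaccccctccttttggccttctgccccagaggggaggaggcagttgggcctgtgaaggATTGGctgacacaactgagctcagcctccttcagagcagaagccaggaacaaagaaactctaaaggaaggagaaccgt
Cyp4f13, chr17:32947362-32947611, minus strand: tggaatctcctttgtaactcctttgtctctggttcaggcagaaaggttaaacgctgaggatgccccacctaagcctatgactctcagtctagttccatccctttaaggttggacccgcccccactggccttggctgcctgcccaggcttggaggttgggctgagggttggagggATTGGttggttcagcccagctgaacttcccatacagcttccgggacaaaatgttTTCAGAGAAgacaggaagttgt
CCAAT or its reverse was present in the window of all 4 genes, and 33.8% of 32536 promoter windows of this length hold it. It lay 50 to 46 bases before the listed start in Cyp4f14, 23 to 19 in Cyp4f16, 78 to 74 in Cyp4f15 and 76 to 72 in Cyp4f13. TTCNNNGAA occurred in the Cyp4f13 window among these 4, in the Cyp4b1 window as well, and in 7.04% of all windows. The match in the Cyp4f13 window lies inside the span of the gene. The nuclear receptor element AGGTCA, found in 14.0% of all windows, and TATAAA, found in 12.3%, did not occur in the windows of these 6 members. CCAAT was thus in the windows of both Cyp4f14, which fell, and Cyp4f16, which rose, at a share of all windows that makes such matches common.

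Cyp4f16, whose substrates are less well known, rose at gene level, while its probe sets moved in both directions. Its level was 251, 180 and 283 in SRSF3HKO, against 107, 103 and 128 in WT, as intensity. The groups did not overlap, and the log2 change of 0.97 ± 0.22 corresponds to a 1.95-fold higher level (limma adjusted p = 0.0295). With the gene level taken as the mean over probe sets in place of the median, the log2 change was 0.62 (limma adjusted p = 0.0375). This call ended when WT replicate 1, 2 or 3 was left out (limma adjusted p = 0.121, 0.113 and 0.0832), without SRSF3HKO replicate 1 or 3 (0.0567 and 0.0722) and with presence of Y-linked signal in the model (0.0698), with log2 changes of 0.84 to 1.05. Within arrays with Y-linked signal the log2 difference was 1.31, and within those without it, 0.67. The summed levels of macrophage and cholangiocyte markers, given above, were higher on all 3 SRSF3HKO arrays. For cholangiocyte markers the margin was small, with a lowest SRSF3HKO sum of 952 and a highest WT sum of 944. Single macrophage markers went both ways. Adgre1 was at 9.77, 6.74 and 7.20 in SRSF3HKO and 7.63, 7.58 and 7.68 in WT. Cd68 was at 10.68, 9.02 and 8.80 in SRSF3HKO and 8.05, 8.28 and 7.93 in WT. The part of these cells in the rise was not tested.

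**Figure D2:**
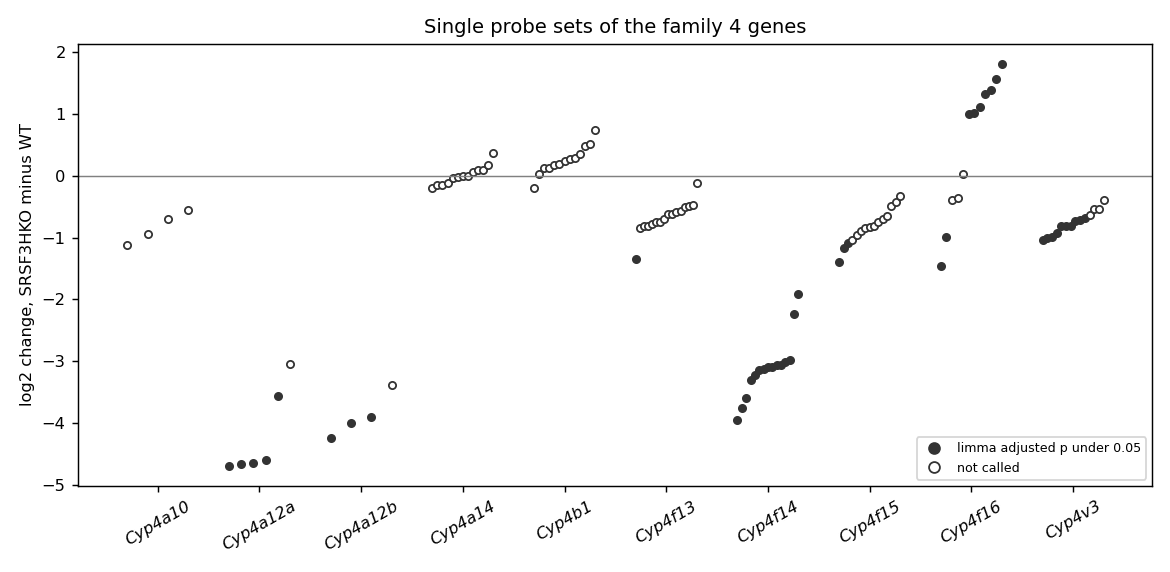
Log2 change, SRSF3HKO minus WT, of each of the 112 tested probe sets of the 10 genes, ordered within each gene; filled points passed limma at an adjusted p under 0.05. All 15 Cyp4f14 points are filled and below 0, whereas the Cyp4f16 points run from -1.45 to 1.81.

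Of the 12 tested probe sets of Cyp4f16, 7 rose and 2 fell, against 4.73% of all probe sets called higher and 4.33% called lower. The largest rise was in probe set 5143901, with intensities of 371, 247 and 320 in SRSF3HKO and 75.7, 75.5 and 78.3 in WT (log2 change 1.81 ± 0.23, limma adjusted p = 0.00348). The largest fall was in probe set 5561209, with 274, 168 and 318 in SRSF3HKO and 662, 677 and 767 in WT (log2 change -1.45 ± 0.26, limma adjusted p = 0.0130). These 2 probe sets of the same gene thus stood in opposite order between the groups on the same arrays. Probe set 4892325 also fell, with 229, 158 and 283 in SRSF3HKO and 428, 441 and 470 in WT (log2 change -0.98 ± 0.25, limma adjusted p = 0.0431).

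Between these extremes 3 probe sets did not pass the test. Probe set 5196567 averaged 688 ± 127 in SRSF3HKO and 881 ± 36.4 in WT, with a log2 change of -0.37. Probe set 4875988 averaged 891 ± 263 in SRSF3HKO and 1150 ± 236 in WT, with a log2 change of -0.38. Probe set 5073524 averaged 307 ± 37.7 in SRSF3HKO and 299 ± 32.6 in WT, with a log2 change of 0.03. The other 6 probe sets that rose were 4579023 (log2 change 1.58), 4504543 (1.12), 5430476 (1.02) and 5023535 (1.00), besides 4763076 and 4493308. The WT means of 4763076 and 4493308 lay under the probe set floor, so these 2 passed the filter only through the SRSF3HKO arrays. Measured from that floor, 4763076 was at least 2.21-fold higher and 4493308 at least 2.22-fold, with limma adjusted p = 0.0276 and 0.0237. The 6 were not all dim, since 5430476 averaged 939 ± 177 in SRSF3HKO and 451 ± 56.6 in WT, whereas 4493308 averaged 95.5 ± 25.0 in SRSF3HKO and 28.4 ± 8.21 in WT. The 2 untested probe sets, 4478098 and 5029067, lay below the probe set floor when averaged over all arrays. They had means of 28.6 and 55.3 in SRSF3HKO and of 8.46 and 7.26 in WT. In SRSF3HKO alone the mean of 5029067 lay above that floor (log2 6.15).

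**Figure D3:**
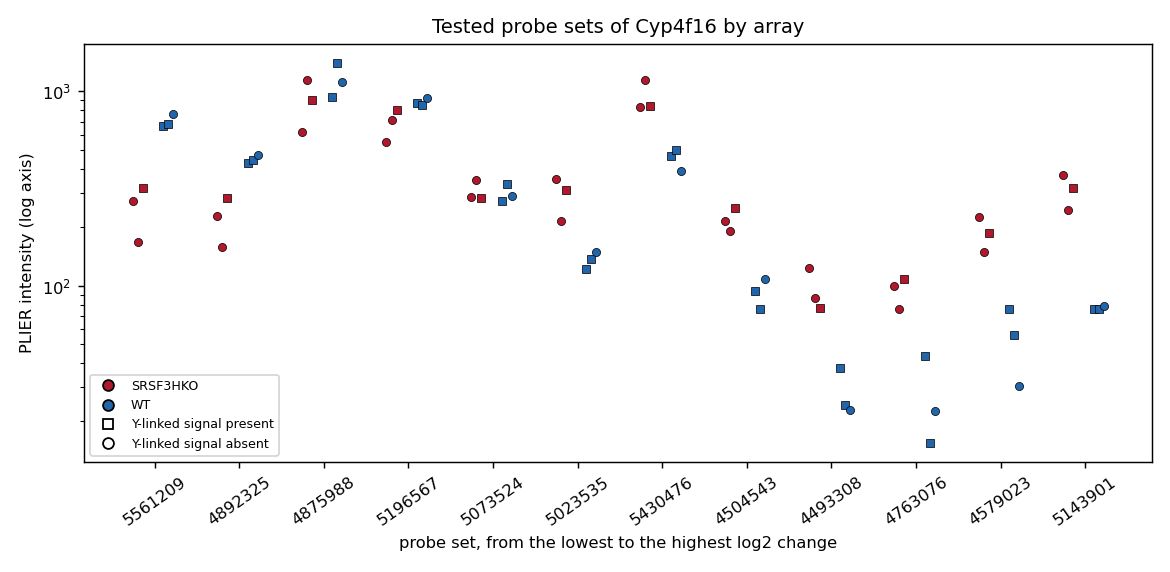
PLIER intensity (log axis) of the 12 tested Cyp4f16 probe sets on each array, SRSF3HKO left of WT, ordered from the lowest to the highest log2 change; squares are arrays with Y-linked signal and circles arrays without it. The 2 probe sets at the left are dimmer on all 3 SRSF3HKO arrays and the 7 at the right are brighter on all 3.

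Usage, the change of a probe set beyond that of its gene, was tested in 2 ways. By limma's diffSplice, 6 of the 12 Cyp4f16 probe sets changed in usage, against 0.654% of the 135528 probe sets tested in this way. As a gene, Cyp4f16 passed the same test (Simes adjusted p = 8.99e-08), as did 6.04% of 10875 genes. Used less in SRSF3HKO were 5561209 (log2 usage change -2.14, adjusted p = 9.06e-08), 4892325 (-1.63, adjusted p = 4.54e-05) and 4875988 (-0.97, adjusted p = 0.0428). Used more were 5143901 (1.42, adjusted p = 0.000464), 4579023 (1.16, adjusted p = 0.00732) and 4763076 (0.96, adjusted p = 0.0464), the last with its WT mean under the floor. diffSplice gives all probe sets of a gene one spread. The per-array splicing index, which is the probe set minus the gene level and keeps a spread for each probe set, called 2 of the 12, against 0.017% of the same probe sets. These were 5561209 (-2.42, limma adjusted p = 0.0232) and 4892325 (-1.95, limma adjusted p = 0.0232), which both tests called. No probe set of the other 9 members was called by either test.

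The geometric mean of the 4 Cyp4f16 probe sets with a lower mean in SRSF3HKO, over that of the 5 risen ones above the floor in both groups, was 1.09, 1.37 and 1.53 on the SRSF3HKO arrays and 5.54, 6.60 and 7.18 on the WT arrays. Both sets of probe sets were picked by their change, so the ratio is a description without a test. Positions of the probe sets within the gene and their match to neighbouring Cyp4f genes were not analysed here. The count of probe sets with changed usage by diffSplice was 3 without SRSF3HKO replicate 1, WT replicate 2 or WT replicate 3, against 6 with all arrays. The count of 7 risen probe sets was 4 without SRSF3HKO replicate 1 or 3, 3 without WT replicate 1, and 1 without WT replicate 2 or 3. The count of 2 fallen probe sets was 1 without SRSF3HKO replicate 1 and 0 without any one of the WT replicates.

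Cyp4f15 and Cyp4f13, which also hydroxylate leukotrienes, had lower means in SRSF3HKO without passing the test at gene level. Cyp4f15 had intensities of 644, 470 and 911 in SRSF3HKO and 1128, 1071 and 1319 in WT. The groups did not overlap, and the log2 change was -0.83 ± 0.26 (limma adjusted p = 0.0724). All 15 of its probe sets had negative log2 changes, from -1.39 to -0.32, and 3 fell, against 4.33% of all probe sets called lower. Cyp4f13 had intensities of 305, 430 and 677 in SRSF3HKO and 668, 749 and 769 in WT. SRSF3HKO replicate 3 lay within the WT range and the other SRSF3HKO arrays below it, and the log2 change was -0.68 ± 0.28 (limma adjusted p = 0.152). Of its 16 probe sets all had negative log2 changes and 1 fell, a count near the share over all probe sets. It was probe set 5353925, which averaged 982 ± 264 in SRSF3HKO and 2461 ± 128 in WT (SD, n = 3 each). Both genes were called lower without SRSF3HKO replicate 3, Cyp4f15 at -1.06 and Cyp4f13 at -0.97 (limma adjusted p = 0.0347 and 0.0446).

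Cyp4a12a and Cyp4a12b, the male-biased fatty acid and arachidonic acid hydroxylases, showed the largest differences of group means among the 10 members and also the widest spread within WT. Cyp4a12a had log2 values of 4.56, 4.93 and 6.02 in SRSF3HKO and 11.12, 10.87 and 7.15 in WT. Cyp4a12b had log2 values of 5.13, 5.41 and 6.08 in SRSF3HKO and 10.88, 10.64 and 7.21 in WT. In both genes WT replicate 3, the WT array without Y-linked signal, was far below the other WT arrays, and yet it remained above every SRSF3HKO array. The SRSF3HKO mean of Cyp4a12a lay under the detection floor, so this gene passed the filter only through the WT arrays. Computed from that floor it was at least 20.6-fold lower, with a fitted log2 change of -4.54 ± 0.96 (limma adjusted p = 0.0229). Cyp4a12b was 16.4-fold lower, with a log2 change of -4.04 ± 0.86 (limma adjusted p = 0.0240), and 1 of its SRSF3HKO arrays lay under the floor. These sizes depend on the pseudocount, with log2 changes of -5.42 for Cyp4a12a and -4.61 for Cyp4a12b at a pseudocount of 1, and of -3.45 and -3.15 at 64.

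The difference of the 2 genes was negative at both levels of the Y-linked signal. Among arrays with it, 1 SRSF3HKO and 2 WT, the log2 difference was -4.98 for Cyp4a12a and -4.68 for Cyp4a12b. Among the 2 SRSF3HKO and 1 WT arrays without it, the differences were -2.40 and -1.94, and neither passed the test there (limma adjusted p = 0.164 and 0.260, on 3 arrays). With presence of Y-linked signal in the model both calls held, at -3.69 and -3.31 (limma adjusted p = 0.0140 and 0.0218). Leaving out WT replicate 1 ended both calls (limma adjusted p = 0.0945 for Cyp4a12a and 0.0959 for Cyp4a12b), and so did leaving out WT replicate 2 (0.107 and 0.110), at log2 changes of -3.39 to -3.96. Without WT replicate 3 the log2 changes were -5.83 and -5.22 (limma adjusted p = 0.00201 and 0.00104).

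These 2 genes are near-identical copies, and the array could separate them at few places. Of the 6 probe sets assigned to Cyp4a12a alone 5 fell, as did 3 of the 4 assigned to Cyp4a12b alone. Over all probe sets tested 4.33% were called lower. The SRSF3HKO mean lay under the probe set floor for 5 of those 6 and 2 of those 4, which passed the filter only through the WT arrays. A further 23 probe sets are assigned to both genes, and 18 of them fell, with log2 changes from -4.86 to -0.96 and a median of -3.84. The median log2 level of these shared probe sets was 4.82, 5.75 and 6.45 in SRSF3HKO and 10.85, 10.67 and 7.03 in WT, the same order of arrays as in each gene alone. Signal from one copy on probe sets of the other was not tested.

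**Figure D4:**
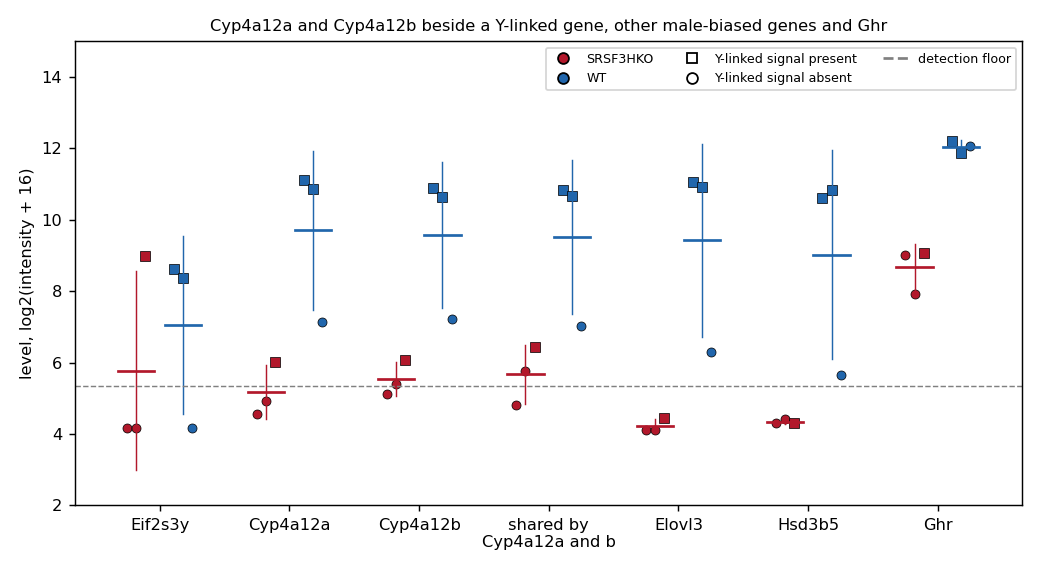
Level, as log2(intensity + 16), of the Y-linked gene Eif2s3y, of Cyp4a12a, Cyp4a12b and the median of their 23 shared probe sets, of the male-biased genes Elovl3 and Hsd3b5, and of the growth hormone receptor gene Ghr, SRSF3HKO left of WT; bars are means, lines SD (n = 3 each), squares arrays with Y-linked signal, circles arrays without it, and the dashed line is the detection floor of 5.35. The WT array without Y-linked signal is the lowest WT array in every column but Ghr.

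The genes whose profile over the 6 arrays was nearest to Cyp4a12a, by root mean square distance between centred log2 values, were Cyp4a12b (0.314), the fatty acid elongase gene Elovl3 (0.547) and the steroid dehydrogenase gene Hsd3b5 (0.620). Cyp4a12b had the same genes nearest, Cyp4a12a (0.314), Hsd3b5 (0.681) and Elovl3 (0.721). Elovl3 and Hsd3b5 are themselves known as male-biased. Of 15 tested male-biased genes 11 fell and none rose, against 5.03% of all genes tested called lower. The median log2 change of the 15 was -3.08. Among those that fell, Slco1a1, Elovl3, Hsd3b5 and Nox4 had SRSF3HKO means under the floor, so they passed the filter only through the WT arrays. Genes low in both groups were not tested. WT replicate 3, the WT array without Y-linked signal, was the lowest WT array for all 15, and Y-linked signal was present on 1 of 3 SRSF3HKO arrays and 2 of 3 WT arrays. With presence of Y-linked signal in the model 8 of the 15 fell. Leaving out WT replicate 1 left 4 that fell, WT replicate 2 left 3, SRSF3HKO replicate 3 left 7, and without SRSF3HKO replicate 2 there were 11 that fell and 1 that rose. The median log2 difference was -2.59 within arrays with Y-linked signal and -1.92 within those without it, with 13 of 15 negative in each. Those with the lowest adjusted p were Selenbp2 (-4.49, a selenium-binding protein), Slco1a1, an organic anion transporter that was at least 46.6-fold lower, Cyp7b1 (-3.51, an oxysterol hydroxylase) and Mup3 (-4.92, a major urinary protein whose copies the probe sets may not separate). Their limma adjusted p-values were 0.000492, 0.000713, 0.00211 and 0.00717. Of 8 tested female-biased genes 1 fell and 1 rose, against 5.03% and 6.85% of all genes tested, with a median log2 change of -0.28. Hao2, a hydroxyacid oxidase, was at least 11.3-fold lower, and Prom1 rose (2.36). The SRSF3HKO mean of Hao2 lay under the floor, so it too passed the filter only through the WT arrays. WT replicate 3 was the highest WT array for 6 of these 8 and stood apart in the P450 genes Cyp2b13, Cyp2b9 and Cyp17a1, named here after their values were seen. Cyp2b13 was at 6.69, 6.91 and 8.71 in SRSF3HKO and 6.75, 7.03 and 11.45 in WT. The median log2 difference of the 8 was 0.31 within arrays with Y-linked signal and -1.87 within those without it.

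Growth hormone pulses are known to set the male pattern of liver genes. In the list of 9 growth hormone signalling genes 3 fell and none rose, with a median log2 change of -0.51. Over all genes tested 5.03% were called lower and 6.85% higher. Ghr was at 9.02, 7.94 and 9.08 in SRSF3HKO and 12.21, 11.86 and 12.08 in WT, with a log2 change of -3.37 ± 0.31 (limma adjusted p = 0.00126). Igfals (-3.69) and Igf1 (-2.44), which code for secreted products of this pathway, fell with it (limma adjusted p = 0.000532 and 0.0321).

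Cyp4a10 and Cyp4a14, the subfamily members best known as PPARA targets, did not pass the test. Cyp4a10 had intensities of 3186, 2274 and 4781 in SRSF3HKO and 4181, 5151 and 7645 in WT. SRSF3HKO replicate 3 overlapped with WT, and the log2 change was -0.75 ± 0.31 (limma adjusted p = 0.158). All 4 of its probe sets had negative log2 changes, from -1.11 to -0.55, with none called by limma. Another 12 probe sets are shared by Cyp4a10 with Cyp4a31, Cyp4a32 or both. The 8 assigned to all 3 genes had a median log2 change of -1.03 and none was called. Of the 2 shared with Cyp4a32 alone 1 fell, against 4.33% of all probe sets called lower.

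Cyp4a14 had intensities of 1361, 2952 and 4236 in SRSF3HKO and 1981, 2302 and 4111 in WT. The arrays of the groups were interleaved, and the log2 change was -0.05 ± 0.43 (limma adjusted p = 0.958). Its 13 tested probe sets had changes between -0.20 and 0.37. Within arrays with Y-linked signal the log2 difference was 0.98, and within those without it, -1.03, so the direction turned with the arrays compared. Cyp4a10 was at 0.04 and -1.50 in the same comparisons. The genes nearest to Cyp4a14 in profile were Macrod1 (0.128), Tas2r129 (0.210) and Auh (0.231), and those nearest to Cyp4a10 were Rdh16 (0.141), Copz2 (0.153) and Tmem98 (0.162).

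PPARA targets as a list, without the Cyp4a genes, had 2 of 21 tested genes higher and none lower. The shares of all genes tested were 6.85% called higher and 5.03% called lower, so the count of rises was near the share over all genes. The median log2 change of the list was 0.18, against 0.08 over all genes tested. The 2 that rose were Crat (1.08), which makes acylcarnitine from short chains, and Pdk4 (2.42), an inhibitor of pyruvate oxidation (limma adjusted p = 0.0192 and 0.0287). Pdk4 was at 7.24, 9.56 and 7.56 in SRSF3HKO and 5.88, 5.30 and 5.92 in WT. The receptor gene itself, Ppara, was at 8.39, 9.17 and 8.89 in SRSF3HKO and 9.74, 9.62 and 9.88 in WT, a fall of 0.93 on the log2 scale (SE 0.23, limma adjusted p = 0.0404). Of 21 nuclear receptors and other regulators 3 fell and none rose, the others being its partner Rxra (-0.77) and the hepatocyte factor Cebpa (-1.48), with limma adjusted p = 0.0349 and 0.0263. The median of that list was -0.32.

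Cyp4v3, the mouse counterpart of the human gene mutated in Bietti crystalline dystrophy and a fatty acid hydroxylase, fell with the smallest standard error of the 10 members. Its intensity was 1482, 1603 and 1499 in SRSF3HKO, against 3460, 3014 and 2652 in WT. The groups did not overlap, and the log2 change of -0.98 ± 0.17 corresponds to a 1.97-fold lower level (limma adjusted p = 0.0130). Other gene summaries gave a smaller fall, -0.76 with the mean over probe sets and -0.74 by median polish (limma adjusted p = 0.0207 for each). All 14 of its probe sets had negative log2 changes, from -1.03 to -0.39, without overlap of the groups, and 10 fell. The share of all probe sets without overlap was 31.8%, and the share called lower was 4.33%. Its log2 difference was -1.10 within arrays with Y-linked signal and -0.78 within those without it. Leaving out WT replicate 1 or 2 ended the call of the gene (limma adjusted p = 0.0821 and 0.0680), at log2 changes of -0.88 and -0.98. A further 3 probe sets are assigned to both Cyp4v3 and its neighbour Klkb1, and 1 of them fell.

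Cyp4b1, known for hydroxylation of medium-chain acids and activation of plant toxins in lung, did not pass the test. Its intensity was 161, 131 and 112 in SRSF3HKO and 86.5, 102 and 147 in WT. The groups overlapped, and the log2 change was 0.25 ± 0.24 (limma adjusted p = 0.522). None of its 13 tested probe sets was called by limma, with changes from -0.20 to 0.74. Lung markers, of which 5 of 10 lay above the floor, summed to 348 to 523 in SRSF3HKO and 293 to 404 in WT, with none called. Of the family members outside the 10, Cyp4f18 was above the floor and not called (log2 change -0.03, limma adjusted p = 0.926). Cyp4a31 passed the filter only through the SRSF3HKO arrays, at 6.62, 6.05 and 4.74 in SRSF3HKO and 5.00, 4.88 and 5.06 in WT, with the WT mean under the floor, and it was not called (limma adjusted p = 0.229). Cyp4f39 and Cyp4x1 were under the floor.

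Some genes listed for the steps that follow omega-hydroxylation were lower. Of 15 tested genes listed for the oxidation of omega-hydroxy and dicarboxylic acids 5 fell and none rose, against 5.03% of all genes tested called lower. The listed genes need not act in this route alone. The median log2 change of the 15 was -0.34. Among those not called were Aldh3a2 (-0.30), Hsd17b4 (-0.26), Ehhadh (0.22) and Acaa1a (0.93), with limma adjusted p = 0.601, 0.330, 0.463 and 0.0614. The alcohol dehydrogenase gene Adh4, whose product oxidises omega-hydroxy acids, fell by 3.28 on the log2 scale, the acyl-CoA synthetase gene Acsl1 by 1.53, the peroxisomal importer gene Abcd3 by 1.28 and the aldehyde dehydrogenase gene Aldh9a1 by 1.40 (limma adjusted p = 0.00226, 0.00683, 0.0122 and 0.0153). Of 21 tested genes for other routes of arachidonic acid 4 fell and none rose, with a median of -0.20. The 4 were among 10 tested Cyp2c and Cyp2j genes, many of which code for epoxygenases, and were Cyp2c50 (-1.97), Cyp2j5 (-3.62), Cyp2c54 (-3.40) and Cyp2c29 (-1.01), with limma adjusted p = 0.00368, 0.00382, 0.00886 and 0.0402. Of the other 6, 5 had negative log2 changes and 1 a positive one, Cyp2c39 (2.79, limma adjusted p = 0.214).

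Genes listed for redox partners of P450 enzymes, heme synthesis and heme breakdown did not move together. Of 13 tested genes 2 fell, the coproporphyrinogen oxidase gene Cpox (-1.65) and the mitochondrial cytochrome gene Cyb5b (-1.27), and the heme oxygenase gene Hmox1 rose by 2.10 (limma adjusted p = 0.00434, 0.00587 and 0.00842). Over all genes tested 5.03% were called lower and 6.85% higher, so the count of rises was near its share. Hmox1 was at 10.25, 9.50 and 8.92 in SRSF3HKO and 7.26, 7.50 and 7.61 in WT, highest on SRSF3HKO replicate 1. The median of the list was -0.15. Por, which passes electrons to P450 enzymes, was at 11.25, 12.22 and 11.55 in SRSF3HKO and 10.37, 10.10 and 11.12 in WT. The groups did not overlap, and the log2 change of 1.14 ± 0.33 did not pass the test (limma adjusted p = 0.0587).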

How the data were processed

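Liver RNA was measured on 6 exon arrays, 3 of SRSF3HKO mice and 3 of WT controls. The deposited values are linear intensities of core exons, which the authors normalized by PLIER, per the labels. The submitters' processing notes also name Affymetrix Expression Console. Versions, the background step and the genome build are not given in the sources used here. Genotypes come from the labels and replicate numbers follow sample order.

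Of 229581 probe sets, 208397 had 1 gene and entered gene levels (median over probe sets of log2(intensity + 16)). The detection floor was the 90th percentile of 1036 genes for olfactory, taste and vomeronasal receptors (log2 5.35 for genes, 5.63 for probe sets), and features with a mean above it were tested. Tests were run in R 4.3.3 with limma 3.58.1 (eBayes with an intensity trend), Benjamini-Hochberg adjusted over all 11711 genes or 157572 probe sets, with 0.05 as threshold. Usage was tested with diffSplice in genes with at least 3 tested probe sets and with the splicing index. Steps were tested on simulated data, in which diffSplice made calls without a change where probe sets of a gene differed in spread. Y-linked signal was read from 2 genes, Eif2s3y and Kdm5d.

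The members and gene lists were chosen with earlier results of these data known. All members, all Cyp4f16 probe sets, the extremes of the others, up to 4 called genes per list and the 3 nearest profiles per Cyp4a gene are named, besides Ppara, Ghr and Por. Cyp4f18, Cyp4a31, Cyp4f39, Cyp4x1, Adgre1, Cd68, Nox4, Aldh3a2, Hsd17b4, Ehhadh and Acaa1a were named after their values were seen. Alternatives were pseudocounts of 1 and 64, quantile normalization, other gene summaries, no filter, other eBayes settings, array weights, Y-linked signal and each array left out. Adding the probe sets shared by Cyp4a12a and Cyp4a12b, and the counts of sex-biased genes under alternatives, were chosen after seeing the data.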

Additional observations from a re-analysis of the deposited data

How the results depend on the processing

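Of the 5 called members, Cyp4f14 kept its call under every alternative run but one, the arrays without Y-linked signal. The number of members called lower was 4, and 0 in the arrays without Y-linked signal, and 1 to 6 when single arrays were left out, with 1 without WT replicate 1 or 2. The number called higher was 1, and 0 with the Y-linked covariate, 2 in arrays with Y-linked signal, 0 in arrays without it, and 0 to 1 when single arrays were left out. The 2 fits within one level of Y-linked signal rest on 3 arrays, of which the lone array of a genotype is assumed to vary like the others. All genes called numbered 1391, and 618 with the Y-linked covariate, 2157 with array weights, 2177 in arrays with and 0 in arrays without Y-linked signal, and 244 to 2155 when single arrays were left out. Member probe sets called higher numbered 7, and 2 with the covariate, 18 in arrays with and 0 in arrays without Y-linked signal, and 1 to 7 when single arrays were left out. Those called lower numbered 39, and 0 in arrays without Y-linked signal, and 15 to 38 when single arrays were left out. For Cyp4f16 alone the 7 called higher became 2 with the covariate, 0 in arrays without Y-linked signal, and 1 to 7 when single arrays were left out. Its 2 called lower became 1 with the covariate, without trend, without the filter and in arrays with Y-linked signal, 0 in arrays without it, and 0 to 2 when single arrays were left out. Its 6 probe sets with changed usage became 2 with the splicing index and 3 to 8 when single arrays were left out.

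The sign of Cyp4a14, which was not called, turned with array weights (0.039), the mean over probe sets (0.081), median polish (0.017), quantile normalization (0.037), in arrays with Y-linked signal (0.98), and without SRSF3HKO replicate 1 (0.41) or WT replicate 3 (0.27), with a range of -0.40 to 0.41 when single arrays were left out. Cyp4a10 turned to 0.043 in arrays with Y-linked signal and Cyp4b1 to -0.012 in arrays without it. The cause was not tested. With the shared probe sets added, Cyp4a12a was at -3.97 and Cyp4a12b at -3.86 (limma adjusted p = 0.0336 and 0.0362). No paired analysis was possible because the labels give no replicate numbers shared by the groups.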
